A study of Mus musculus with 57 samples.

Results

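The genes described here are 55 autosomal mouse genes that encode enzymes adding or removing histone and DNA modifications, and Polycomb proteins. They were chosen by name, from 24921 autosomal genes with a curated RefSeq transcript, and fall into 8 groups by role: the PRC2 core, PRC1, histone methyltransferases and partners, histone demethylases, acetyltransferases, zinc-dependent deacetylases, sirtuins, and enzymes of DNA methylation. The study made ChIP-seq libraries for 3 histone marks (H3K4me3, H3K27ac and H3K27me3) from the cortex and the gastrocnemius, a calf muscle. All animals were PSAPP mice, which carry a mutated human presenilin 1 and a chimeric mouse and human mutant amyloid precursor protein, aged 13 months and fed a modified AIN-93 diet, so both tissues share genotype, age and diet and no animal without the transgenes entered. Each mark had 9 cortex and 10 gastrocnemius libraries, and 9 of the 10 mice gave both tissues. The labels used here gave no sex, so tissue was the only comparison. Per the study both females and males were used, with fewer males than females for the cortex, and they are pooled here in each tissue.

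H3K4me3 is found around the starts of genes that are active or poised, and is written by complexes built on Kmt2 and Setd1 enzymes. H3K27ac marks active promoters and enhancers and is written mainly by Crebbp and Ep300. H3K27me3 is written by PRC2 through Ezh1 or Ezh2, and is read by the chromodomain of Cbx proteins within PRC1, which can itself ubiquitinate histone H2A. Several of the proteins that write, read or erase these marks are encoded by the genes whose own starts were measured here.

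The values came from peak lists made for each library, which hold no count for an input control. A peak's read count was shared over its length, and the part falling within 1 kb of each RefSeq Select transcription start was expressed as reads per 1000000 autosomal peak reads after TMM scaling (normalized RPM). All windows were 2001 bp long. Sharing a count over its peak lowers the window value of a wider peak, so levels of genes with peaks of unlike width are not directly comparable. Differences are cortex minus gastrocnemius on the log2 scale, each with its standard error. The read count in autosomal peaks ranged from 9.03 to 18.6 M per H3K4me3 library, from 3.90 to 27.04 M for H3K27ac and from 2.99 to 18.2 M for H3K27me3 (M, 1000000 reads), where gastrocnemius replicate 5 was the deepest. As a check of the labelled tissues, the neuronal genes Rbfox3, Snap25, Map2 and Camk2a had an H3K4me3 peak in 9 of 9 cortex libraries and in 0 to 3 of 10 gastrocnemius libraries. The neuronal gene Syt1 had a peak in every library of both tissues, at a higher level in the cortex (2.37 ± 0.13, edgeR). All 6 muscle genes had one in 10 of 10 gastrocnemius libraries, Ckm, Myh4, Ttn and Tnnt3 in 0 of 9 cortex libraries and Acta1 and Mylpf in 1 and 2 of 9. Of 4 astrocyte genes, Gfap had a peak in 9 cortex and 0 gastrocnemius libraries, and the others had one in all 19, at levels higher in the cortex at Slc1a2 (1.27 ± 0.11) and higher in the gastrocnemius at Aqp4 (-0.74 ± 0.20) and Aldh1l1 (-1.16 ± 0.14). Of 4 microglial genes, Csf1r had a peak in 9 and 4 libraries, C1qa in 9 and 1, Itgam in 6 and 0 and Aif1 in none. The endothelial genes Pecam1 and Cdh5 had one in all 19, higher in the gastrocnemius (-1.35 ± 0.13 and -1.37 ± 0.12). The part of these cell types in the differences below was not tested. Both tissues hold many cell types, so a mark in more cells and a higher level per cell cannot be told apart in any value below.

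Promoter sequences of 250 bases before to 50 after the start were matched in RefSeq (GRCm38.p6) for 44 of the 55 genes, Cbx2 not among them. For 42 of these the promoter was that of the measured start, while that of Sirt4 lay 187 bp and that of Tet3 14714 bp from it. The median ratio of observed to expected CpG in them was 0.81, and 39 of the 44 (88.6%) had a ratio of at least 0.6. Of 25748 autosomal promoters, 1 per gene, 37.1% did, with a median of 0.395. For these the first promoter listed for a gene was taken, and for members the one nearest the measured start, so the sets were chosen differently. The members matched with an H3K27me3 peak in any library (5 genes, ratios from 0.61 to 0.99, median 0.80) lay within the range of the 39 without one (0 to 1.17, median 0.82). Shown here are promoters at the starts on which the H3K27me3 results turn, Cbx8 (chr11:119040864-119041163, minus strand), Tet1 (chr10:62887275-62887574, minus strand) and Hdac11 (chr6:91156565-91156864, plus strand), and the pair of starts of Hdac9, the Select start (chr12:34917046-34917345, minus strand) and a start 388206 bp further into the gene (chr12:34528840-34529139, minus strand). Capitals mark CpG dinucleotides, of which these promoters hold 24, 17, 22, 0 and 3 respectively.
Cbx8: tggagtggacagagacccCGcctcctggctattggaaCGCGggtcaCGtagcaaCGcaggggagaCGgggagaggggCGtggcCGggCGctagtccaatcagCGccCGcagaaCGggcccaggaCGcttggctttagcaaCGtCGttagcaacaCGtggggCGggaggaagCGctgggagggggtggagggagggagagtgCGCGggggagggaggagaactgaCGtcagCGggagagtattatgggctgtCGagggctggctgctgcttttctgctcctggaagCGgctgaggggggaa
Tet1: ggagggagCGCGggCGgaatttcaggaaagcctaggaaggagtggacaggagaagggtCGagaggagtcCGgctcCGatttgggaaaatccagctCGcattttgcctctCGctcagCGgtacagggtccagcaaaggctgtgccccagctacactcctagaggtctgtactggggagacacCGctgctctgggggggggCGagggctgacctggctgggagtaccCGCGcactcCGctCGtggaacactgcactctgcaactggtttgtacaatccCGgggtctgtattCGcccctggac
Hdac11: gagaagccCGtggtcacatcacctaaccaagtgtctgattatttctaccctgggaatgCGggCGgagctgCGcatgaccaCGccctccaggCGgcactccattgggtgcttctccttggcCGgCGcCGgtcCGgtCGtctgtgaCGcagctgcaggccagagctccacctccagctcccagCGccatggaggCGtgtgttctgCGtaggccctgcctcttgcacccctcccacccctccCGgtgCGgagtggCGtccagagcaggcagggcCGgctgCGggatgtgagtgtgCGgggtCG
Hdac9, Select start: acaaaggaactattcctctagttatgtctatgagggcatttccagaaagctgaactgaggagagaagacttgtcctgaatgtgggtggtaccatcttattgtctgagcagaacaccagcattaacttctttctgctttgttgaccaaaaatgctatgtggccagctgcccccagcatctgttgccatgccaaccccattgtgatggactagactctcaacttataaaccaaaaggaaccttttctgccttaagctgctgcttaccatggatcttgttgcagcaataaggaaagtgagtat
Hdac9, start with peaks: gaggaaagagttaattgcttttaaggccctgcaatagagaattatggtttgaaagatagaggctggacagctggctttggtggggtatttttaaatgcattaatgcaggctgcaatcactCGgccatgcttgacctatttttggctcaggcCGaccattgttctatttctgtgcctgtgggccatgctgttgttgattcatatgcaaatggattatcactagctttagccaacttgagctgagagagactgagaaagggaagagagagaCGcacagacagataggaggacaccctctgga

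H3K27me3 was seen at few of these genes, and most of those that carried it encode Polycomb proteins or the DNA demethylase Tet1. In the cortex 3 of 55 members (5.45%) had a peak within 1 kb of the start in any library, and in the gastrocnemius 6 of 55 (10.9%), against 33.2% and 37.1% of all autosomal genes. The 6 were Cbx8 and Tet1 (9 of 9 cortex and 10 of 10 gastrocnemius libraries), Cbx2 (8 and 10), Cbx7 (0 and 3), Hdac11 (0 and 3) and Cbx6 (0 and 1). The other 49 members had no H3K27me3 peak in any library, including the PRC2 core genes Ezh1, Ezh2, Eed and Suz12 and the PRC1 genes Ring1, Rnf2 and Bmi1. In every mouse and tissue where a member had H3K27me3, it also had H3K4me3 and H3K27ac peaks in the same window. This follows from the presence of both active marks at these 6 genes in all 19 libraries.

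**Figure D1:**
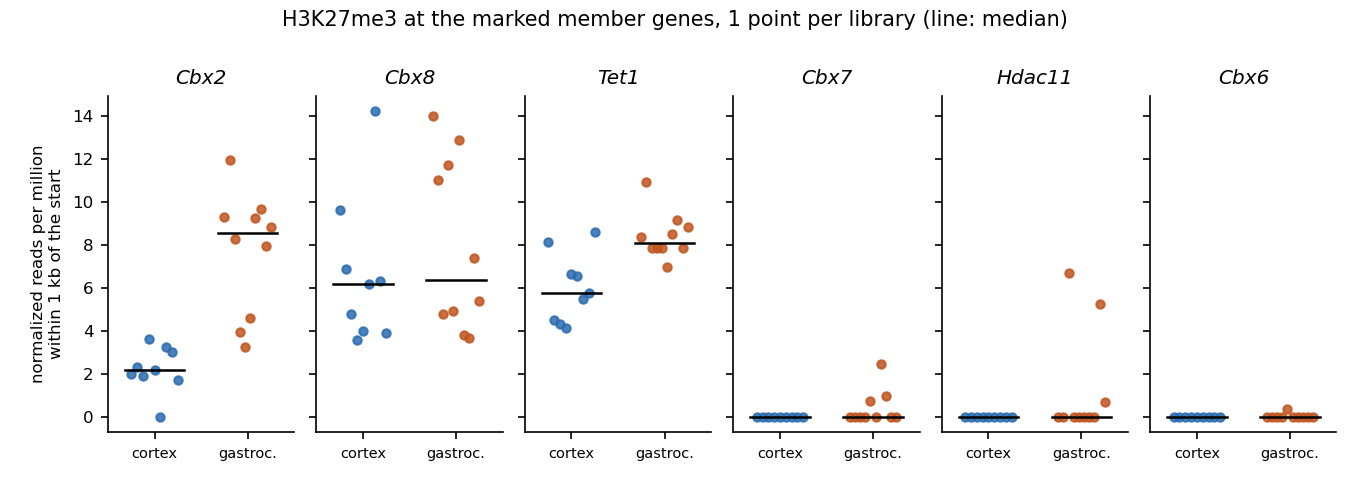
Normalized RPM of H3K27me3 peaks within 1 kb of the start of the 6 members with any peak, 1 point per library, for 9 cortex and 10 gastrocnemius libraries; a library without a peak is at 0. Cbx8 and Tet1 were marked in all libraries of both tissues, and Cbx7, Hdac11 and Cbx6 in 3, 3 and 1 gastrocnemius libraries.

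Cbx2 and Cbx8, chromodomain proteins of PRC1, are neighbours on chromosome 11 in mm10. The Cbx2 start lies at position 119023021 on the plus strand and the Cbx8 start at 119040913 on the minus strand, 17892 bp apart. No H3K27me3 peak in any library covered both starts. The peak at Cbx8 was 19000 to 28600 bp wide in the cortex (median 22400) and 20000 to 36000 bp in the gastrocnemius (median 29300).

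Where the H3K27me3 peaks stopped relative to the start differed between these genes. In all 8 cortex libraries with a peak at Cbx2, the peak ended 221 to 621 bp upstream of the start. In the gastrocnemius it ran over the start in 7 libraries and ended 221 to 421 bp upstream in the other 3 (replicates 4, 5 and 6). At Cbx8 the peak covered the start in 2 of 9 cortex and 5 of 10 gastrocnemius libraries and otherwise ended 288 to 488 bp upstream. At Tet1 the H3K27me3 peak covered the start in all 19 libraries. H3K4me3 and H3K27ac peaks covered the start of all of these genes in all 19 libraries.

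**Figure D2:**
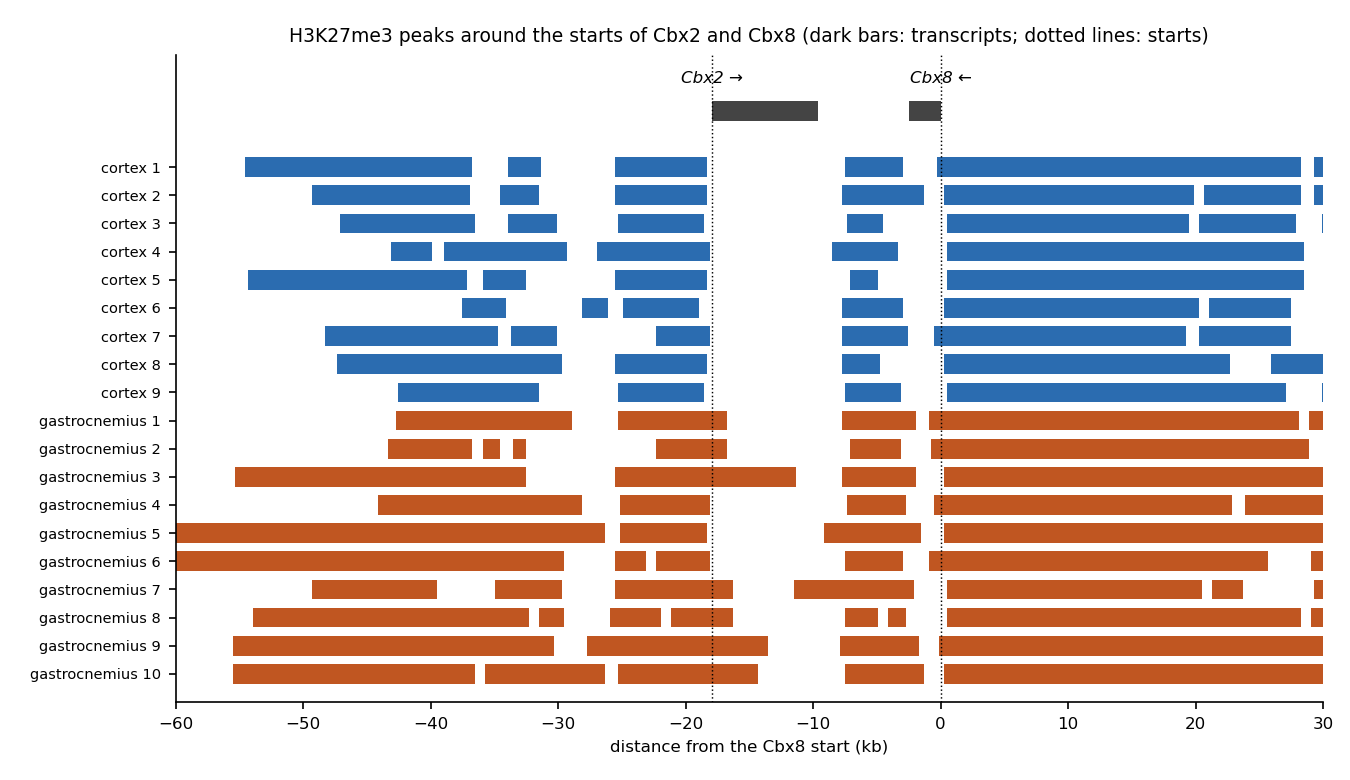
H3K27me3 peaks of each library (1 row per library, cortex blue, gastrocnemius orange) around Cbx2 and Cbx8, by distance in kb from the Cbx8 start; dark bars are transcripts, arrows their direction and dotted lines the starts, and peaks past the limits are cut at them. In the cortex all peaks left of the Cbx2 start end before it, and in 7 gastrocnemius libraries a peak crosses it.

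At Cbx2 the median H3K27me3 value was lower in the cortex, but the gene could not enter the read test over all libraries, and it was not called by the presence of a peak. The normalized RPM in its window was 0 (replicate 6, no peak), 2.18 and 3.63 at the lowest, median and highest cortex library, and 3.24, 8.57 and 11.96 in the gastrocnemius. The value of 0 depends on the edge of the window, since the nearest H3K27me3 peak of cortex replicate 6 ended 1021 bp upstream of the start, 21 bp outside it. The highest cortex library lay above the lowest gastrocnemius library, so the groups overlapped there. The share of the peak's reads assigned to the window was 9.26 to 19.3 in the cortex libraries with a peak and 14.5 to 57.2 in the gastrocnemius. The whole peaks held 82 to 239 and 110 to 369 reads, before scaling to depth, and where reads lay within a peak was not measured. Across all genes, 33.8% of 8831 tested for peak presence were called at a false discovery rate (FDR) under 0.1 by Fisher's exact test. None of the 4 members tested (Cbx2, Cbx6, Cbx7 and Hdac11) was called, and none had an unadjusted p under 0.05. For Cbx2, with a peak in 8 of 9 against 10 of 10 libraries, Fisher's exact test gave p = 0.474 before adjustment.

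The count test of Cbx2 needs a peak in every library and so could not be made with cortex replicate 6. It was called under 4 other settings, each given here with the share of all genes called under it. Without that library, which was left out after the values were seen, edgeR's quasi-likelihood test gave a difference of -1.62 ± 0.26 (SE, adjusted p = 4.71e-05, 46.4% of 2057 genes called). With that library at 0 reads it was -1.75 ± 0.48 (adjusted p = 0.00742, 39.1% of 6202 genes called), and in a window of 2.5 kb, where all libraries had a peak, -0.98 ± 0.16 (adjusted p = 2.97e-05, 57.9% of 2392 genes called). Counting only peaks that cover at least 50% of the window, Cbx2 was marked in 0 of 9 cortex and 7 of 10 gastrocnemius libraries (Fisher's exact test, adjusted p = 0.0153, 33.7% of 8252 genes called). All 4 settings depend on where the peak ends, so they are not independent of each other. The peak covered a median of 29.0% of the window in the cortex and 100% in the gastrocnemius. All reads of the peak were not tested at Cbx2, for want of a peak in the window of cortex replicate 6.

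At Cbx8 the H3K27me3 values of the tissues overlapped. The lowest, median and highest H3K27me3 values were 3.56, 6.18 and 14.2 normalized RPM in the cortex, against 3.67, 6.39 and 14.0 in the gastrocnemius. The ranges nearly coincided. The difference was -0.26 ± 0.29 (edgeR, adjusted p = 0.506), where 48.5% of 2019 genes tested were called, 21.9% of genes being higher in the gastrocnemius, and 1 of 2 members tested, Tet1.

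Tet1, which oxidizes 5-methylcytosine, had its start at chr10:62887324 on the minus strand, inside an H3K27me3 peak in every library. The lowest, median and highest values were 4.12, 5.76 and 8.59 normalized RPM in the cortex, against 6.97, 8.12 and 10.9 in the gastrocnemius. The gastrocnemius median was the higher, and the highest cortex library overlapped the lower gastrocnemius libraries. The difference was -0.47 ± 0.13 (edgeR, adjusted p = 0.00688). The read count of the whole peak went the other way, at 0.22 ± 0.18 (adjusted p = 0.313), and the call was also lost without a scaling factor (-0.39, adjusted p = 0.22). Peak widths at Tet1 were 2600 to 12200 bp in the cortex (median 5800) and 2800 to 7000 bp in the gastrocnemius (median 5700), and neither Tet1 nor Cbx8 was called by width, where 25.6% of genes were.

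The remaining marked members had H3K27me3 peaks in 1 to 3 of the gastrocnemius libraries and in none of the cortex. Cbx7 had 0.752, 2.48 and 0.984 normalized RPM in replicates 5, 7 and 8, with the peak ending 355 to 755 bp upstream of the start. Hdac11, the only member of its deacetylase class, had 6.71, 5.24 and 0.681 in replicates 3, 9 and 10, with a peak over the start in 2 of them. Cbx6 had 0.383 in replicate 5, the deepest H3K27me3 library, from a peak 868 bp upstream. All other libraries were without a peak there.

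The mark H3K4me3 covered nearly all members in both tissues. A peak was present in every library of each tissue at 53 of 55 members (96.4%), against 58.6% of all genes in every cortex library and 56.99% in every gastrocnemius library. The same counts held for H3K27ac, against 59.2% and 57.5%. The median member level was 42.1 normalized RPM of H3K4me3 in the cortex and 39.2 in the gastrocnemius, with 35.3 and 34.4 over all marked genes. For H3K27ac the median member level was 10.2 and 10.3, against 8.69 and 8.61. The exceptions were the same 2 genes for both marks, Ash1l and Hdac9. No member was tested for H3K4me3 presence, where 54.9% of 3214 genes were called.

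Ash1l, which methylates H3K36, had no H3K4me3 peak within 1 kb of its Select start (chr3:88965812, plus strand) in any library. The nearest one was 11812 to 13612 bp away in the cortex and 11012 to 13612 bp away in the gastrocnemius. Its H3K27ac peak was present in 1 of 9 cortex libraries (replicate 2, 2.37 normalized RPM) and in 8 of 10 gastrocnemius libraries, at 1.02 to 9.51. Fisher's exact test called it (adjusted p = 0.0137), the only member tested in a comparison where 51% of 5540 genes were called, 16.8% with more gastrocnemius libraries. In a window of 2.5 kb the adjusted p was 0.049. The call also held without the libraries whose names carry what is here called a run number.

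Hdac9, a deacetylase that binds MEF2 factors in muscle, had no peak of any mark at its Select start in any library. The nearest H3K4me3 peak was 8295 to 9295 bp away. At the start at chr12:34528889, whose promoter is the second Hdac9 sequence above, H3K4me3 and H3K27ac peaks were present in all 19 libraries. Other members also had starts that differed in their marks. A start of Ash2l at chr8:25847694 had no H3K4me3 or H3K27ac peak and had H3K27me3 in 3 of 9 cortex and 8 of 10 gastrocnemius libraries. A start of Dnmt1 at chr9:20959888 was likewise without the active marks and had H3K27me3 in 6 and 3 libraries. At the Select starts of both genes the active marks were present in all libraries and H3K27me3 in none. A start of Hdac7 at chr15:97814863 had H3K4me3 in 4 of 9 cortex and 10 of 10 gastrocnemius libraries, and another at chr15:97844502 had H3K27ac in 2 and 10. A start of Kat2b at chr17:53584126 had H3K27ac in 1 and 10. With any annotated start counted, Fisher's exact test called neither Ash2l nor Dnmt1 for H3K27me3 (adjusted p = 0.189 and 0.373), where 33.8% of 8881 genes were called. The counts at single starts of Hdac7 and Kat2b were not tested.

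The level of H3K4me3 differed between the tissues at 21 of 53 members, in both directions. In all, 11 were called higher in the cortex and 10 higher in the gastrocnemius (39.6% of members), against 52.9% of 13532 genes (28.1% and 24.8%). The median difference was 0.046 over members and 0.028 over all genes. No member passed an absolute log2 difference of at least 1, which 10% of genes did. At 12 of the 55 members the window holds the start of another gene, so its reads belong to both. They are Ezh2, Cbx6, Ring1, Kmt2e, Kdm5a, Kat7, Hdac3, Hdac5, Sirt2, Sirt3, Sirt6 and Sirt7.

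**Figure D3:**
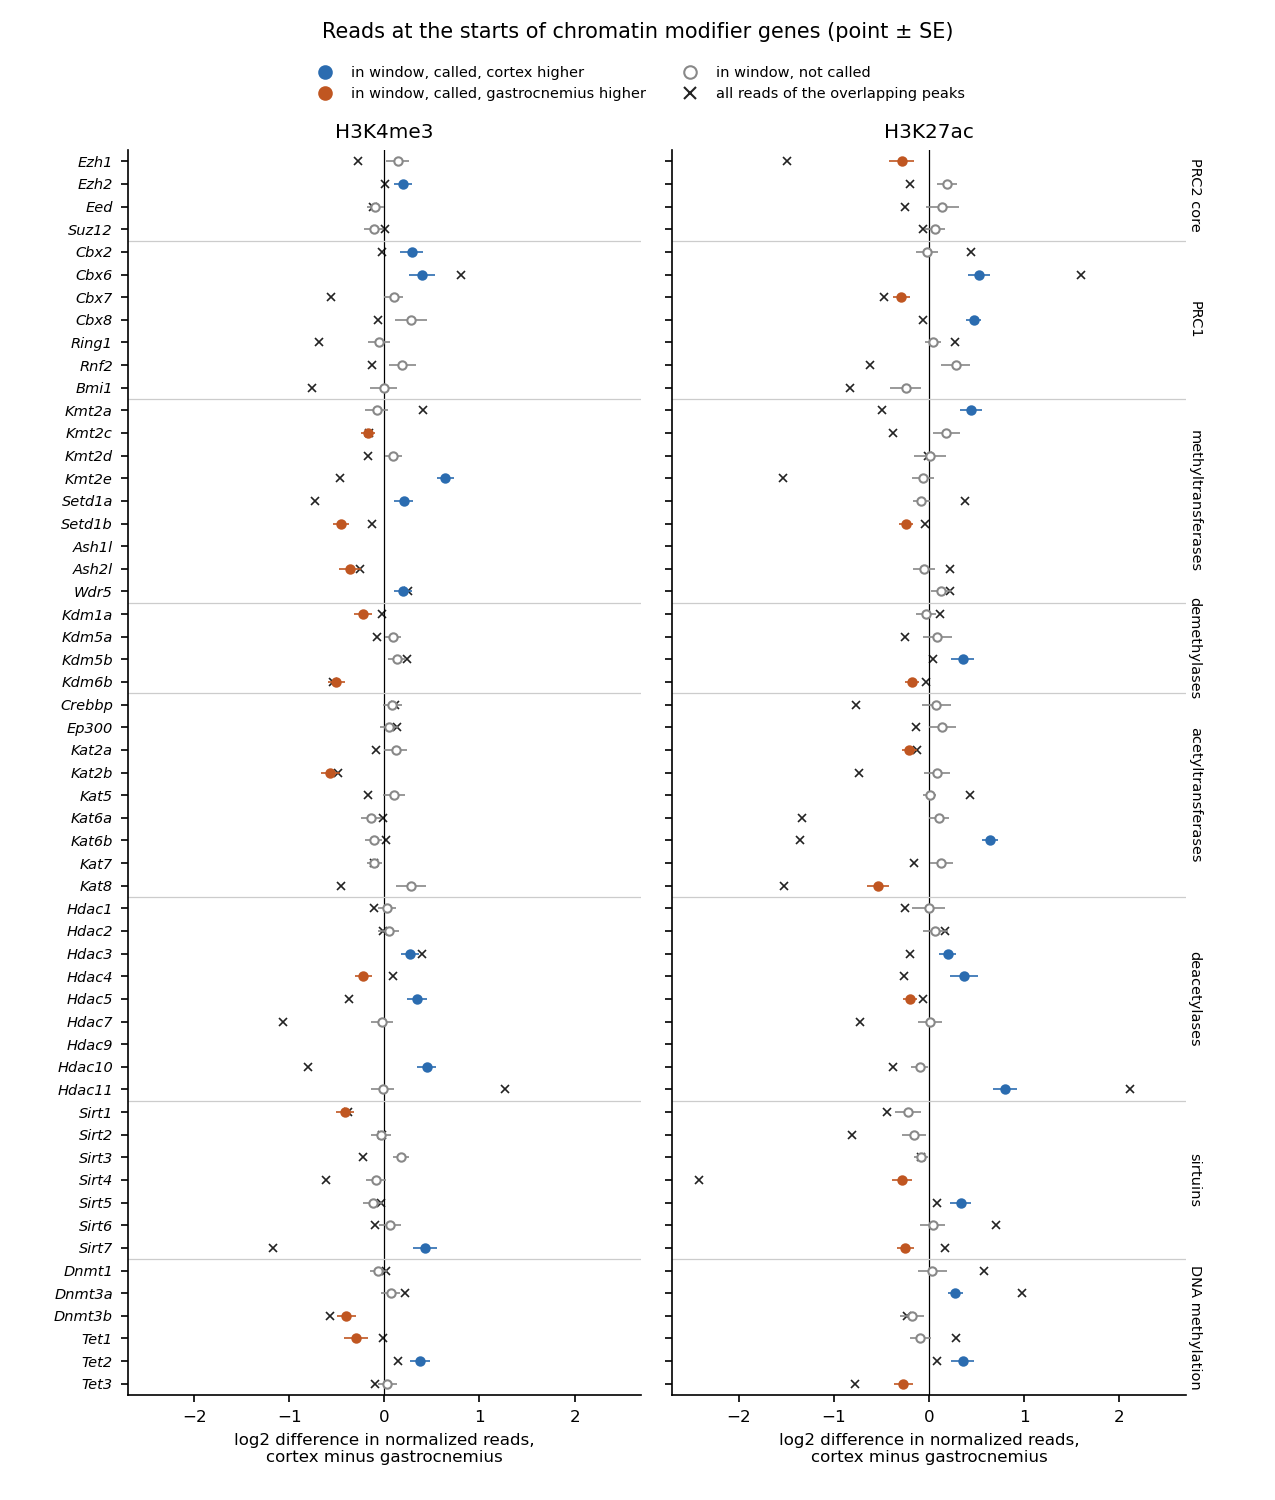
Log2 difference in normalized reads (cortex minus gastrocnemius) for each member, by role, for H3K4me3 and H3K27ac; circles with standard errors are reads within 1 kb of the start, filled where called at FDR under 0.1, and crosses are all reads of the overlapping peaks. All circles lie within an absolute difference of 1, while the crosses spread further and often lie on the other side of 0.

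The scale matters for these directions. Without a scaling factor the median of all genes was 0.33 for H3K4me3 and 0.29 for H3K27ac, and 84.7% and 86.7% of called genes were higher in the cortex, against 53.1% and 52.1% with it. Members called then numbered 37 higher in the cortex and 2 in the gastrocnemius for H3K4me3, where 73.4% of all genes were called, and 24 and 0 for H3K27ac, where 58.6% were. Sharing a peak's reads over its length also lowers the window value of a wider peak. For that reason the difference in all reads of the overlapping peaks is given too: where a gene below has a pair of values in parentheses, the first is the window difference and the second that of all peak reads. Counted by all peak reads, 11 members were higher in the cortex and 26 in the gastrocnemius for H3K4me3, where 78.3% of all genes were called (47.96% of these higher in the cortex), and 11 of the 21 called by window kept their direction and call. For H3K27ac the members numbered 13 and 21, where 72.4% of all genes were called (46.97% of these higher in the cortex).

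Among the members, 2 had H3K4me3 values without overlap between the tissues, 1 with the cortex above and 1 with the gastrocnemius above, against 7.77% and 7.69% of 13532 genes. Kmt2e, a protein with a SET and a PHD domain (chr5:23434464, plus strand), ranged from 49.2 through a median of 58.1 to 62.3 normalized RPM in the cortex, and from 26.2 through 38.0 to 42.5 in the gastrocnemius. Every cortex library was above every gastrocnemius library, with a difference of 0.64 ± 0.090 (edgeR, adjusted p = 5.84e-07). All reads of the peak gave the opposite direction, -0.47 ± 0.088 (adjusted p = 7.91e-05), with a wider peak in the gastrocnemius. The window also holds the start of 5031425E22Rik.

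Setd1b, a catalytic subunit of a SET1 complex that writes H3K4me3 (chr5:123142193, plus strand), went the other way. Its lowest, median and highest values were 29.4, 34.7 and 37.0 in the cortex, against 39.9, 45.7 and 58.5 in the gastrocnemius. The difference was -0.46 ± 0.084 (edgeR, adjusted p = 3.52e-05) and -0.13 ± 0.054 with all reads of the peak (adjusted p = 0.0302). Without a scaling factor it was -0.14 and not called (adjusted p = 0.193). Peak width at Setd1b had medians of 16600 bp in the cortex and 15500 bp in the gastrocnemius and was not called (limma, adjusted p = 0.946), and with widths centred on each library's median it was called wider in the cortex (0.38, adjusted p = 0.0028).

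**Figure D4:**
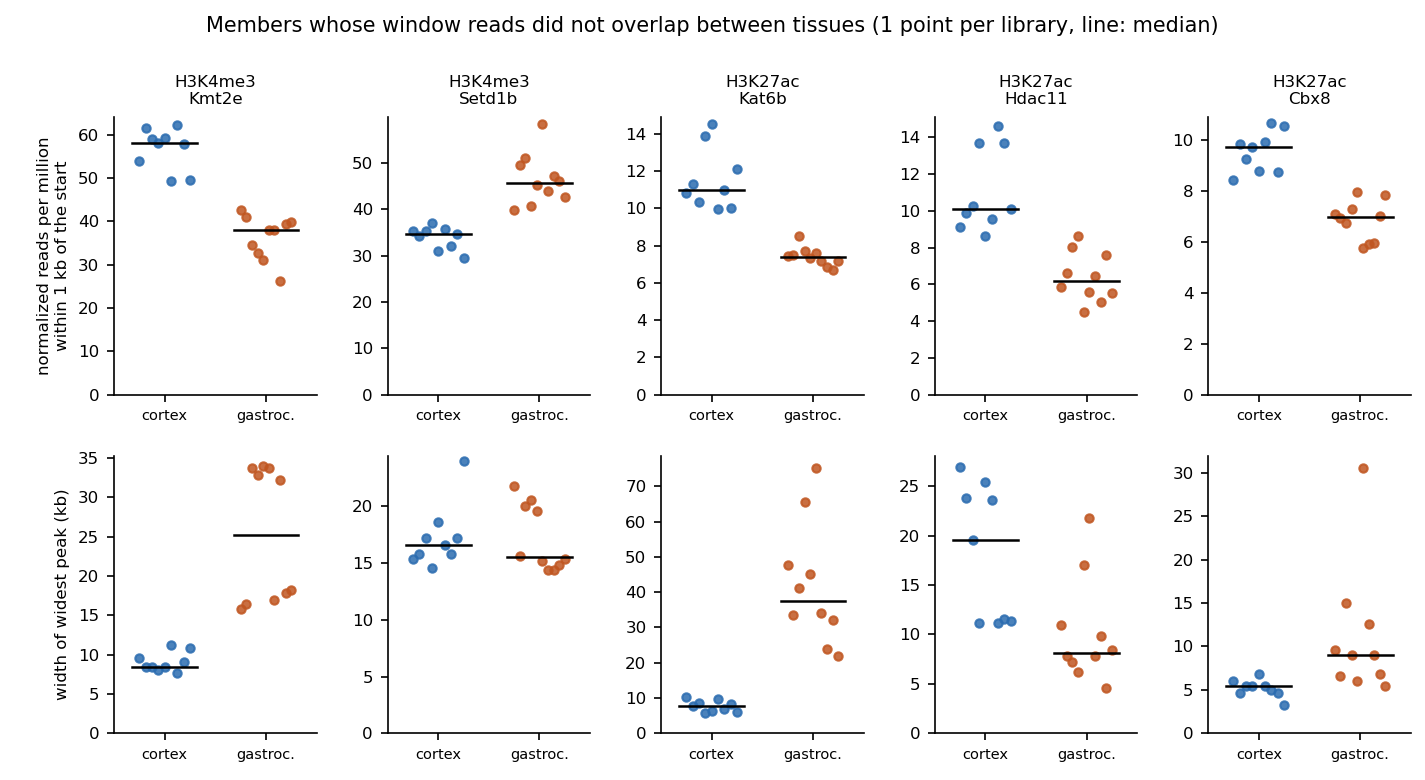
Normalized RPM within 1 kb of the start (top) and width of the widest peak in kb (bottom) in each library, for the members whose cortex and gastrocnemius reads do not overlap; lines are medians. In the top row the cortex points lie above the gastrocnemius points except at Setd1b, and in the bottom row Kmt2e and Kat6b are wider in every gastrocnemius library.

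The other H3K4me3 calls ran through all roles. Of the PRC2 core, 1 of 4 was called, the methyltransferase Ezh2 (0.20 and 0.0047). It also had the highest cortex median of all members by window (76.7 normalized RPM), where a wider peak gives a lowered value. Its median peak width in the cortex was 2800 bp, against 3600 bp over members. Of PRC1, 2 of 7 were higher in the cortex, Cbx6 (0.40 and 0.80) and Cbx2 (0.29 and -0.024). Of the methyltransferases and partners, Kmt2e, Setd1a (0.20 and -0.73) and the shared subunit Wdr5 (0.20 and 0.24) were higher in the cortex by window, and Setd1b, the shared subunit Ash2l (-0.36 and -0.26) and Kmt2c (-0.17 and -0.16) in the gastrocnemius. Both called demethylases were higher in the gastrocnemius, Kdm6b, which removes H3K27me3 (-0.50 and -0.53), and Kdm1a, which removes methyl groups from H3K4 (-0.22 and -0.021). Among 9 acetyltransferases only Kat2b (PCAF) was called (-0.57 and -0.48), from a median of 36.9 in the cortex to 59.4 in the gastrocnemius.

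Among the erasers of acetylation, Hdac10 (0.44 and -0.81), Hdac5 (0.34 and -0.37) and Hdac3 (0.27 and 0.40), the catalytic subunit of the NCoR complex, were higher in the cortex by window and Hdac4 (-0.22 and 0.093) in the gastrocnemius. Of the sirtuins, which need NAD, Sirt7 (0.43 and -1.17) was higher in the cortex by window and Sirt1 (-0.42 and -0.38) in the gastrocnemius. Of the enzymes acting on DNA, Tet2 (0.37 and 0.14) was higher in the cortex, and the de novo methyltransferase Dnmt3b (-0.40 and -0.57) and Tet1 (-0.30 and -0.016) in the gastrocnemius. With all peak reads the sign thus turned at Kmt2e, Setd1a, Hdac10, Hdac5, Hdac4, Sirt7 and Cbx2, and in a window of 2.5 kb at Hdac10 (-0.096) and Sirt7 (-0.036). Without a scaling factor the sign turned at Hdac4, Kdm1a, Kmt2c and Tet1. The weakest calls depended on single libraries. Those of Cbx2, Ezh2, Kdm1a, Kmt2c, Setd1a, Tet1 and Wdr5 were lost when 1 library was left out, for 2 (Kdm1a) to 15 (Wdr5) of the 19 libraries. Their differences without 1 library ranged from 0.14 to 0.24 for Wdr5, 0.16 to 0.24 for Setd1a, 0.15 to 0.23 for Ezh2, 0.22 to 0.35 for Cbx2, -0.36 to -0.25 for Tet1, -0.27 to -0.19 for Kdm1a and -0.21 to -0.15 for Kmt2c. With the mouse as a block, since the same mice gave both tissues, the calls of Ezh2 (0.18), Kdm1a (-0.19) and Kmt2c (-0.16) were lost (edgeR, adjusted p = 0.139, 0.149 and 0.159). The calls kept under all alternatives run, all peak reads and no scaling factor included, were those of Cbx6, Hdac3, Tet2, Kat2b and Kdm6b. The window of Cbx6 also holds the start of Npcd, and that of Hdac3 the start of Rell2.

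For H3K27ac, too, 21 of 53 members were called, 11 higher in the cortex and 10 in the gastrocnemius. This is 39.6% of members against 49% of 13045 genes (25.5% and 23.5%). None passed an absolute difference of at least 1, which 3.77% of genes did, and the medians were 0.033 over members and 0.019 over all genes. In 3 members the values did not overlap, all higher in the cortex, against 4.91% of genes with the cortex above and 5.83% with the gastrocnemius above.

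Hdac11 (chr6:91156815, plus strand) had the largest H3K27ac difference of the members by window. Its values were 8.63, 10.1 and 14.6 normalized RPM at the lowest, median and highest cortex library and 4.503, 6.17 and 8.61 in the gastrocnemius. Every cortex library was above every gastrocnemius library, by 0.80 ± 0.13 (edgeR, adjusted p = 1.72e-05). With all reads of the peaks Sirt4 differed more (-2.41), and the difference at Hdac11 was 2.11 ± 0.16 (adjusted p = 3.68e-10), its peak being wider in the cortex. This gene also had H3K27me3 in 3 gastrocnemius libraries and none in the cortex, while its H3K4me3 level was not called (-0.019 ± 0.12, adjusted p = 0.915).

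Kat6b, an acetyltransferase of the MYST family (chr14:21499785, plus strand), had 9.99, 10.99 and 14.5 normalized RPM in the cortex, against 6.71, 7.39 and 8.51 in the gastrocnemius. The difference was 0.64 ± 0.082 (edgeR, adjusted p = 7.49e-07) with no overlap. All reads of the peaks gave -1.36 ± 0.17 (adjusted p = 6.41e-07), the other direction, with wider peaks in the gastrocnemius. At Cbx8, which carried H3K27me3 at like levels in both tissues, H3K27ac was 8.42, 9.72 and 10.7 in the cortex, against 5.76, 6.98 and 7.96 in the gastrocnemius. The difference was 0.47 ± 0.079 (adjusted p = 3.11e-05), and -0.067 ± 0.18 (adjusted p = 0.757) with all reads of the peaks.

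By role, the PRC2 core had 1 H3K27ac call, Ezh1 (-0.29 and -1.49), and PRC1 had Cbx6 (0.53 and 1.60) and Cbx8 higher in the cortex by window and Cbx7 (-0.29 and -0.47) in the gastrocnemius. Kmt2a, which keeps Hox genes active, was higher in the cortex by window (0.44 and -0.50) and Setd1b in the gastrocnemius (-0.24 and -0.037). Kdm5b, which removes H3K4me3, was higher in the cortex (0.35 and 0.043) and Kdm6b in the gastrocnemius (-0.17 and -0.035). Kat8, which acetylates H4K16 (-0.53 and -1.53), and Kat2a, or GCN5 (-0.20 and -0.12), were higher in the gastrocnemius. Besides Hdac11, Hdac4 (0.37 and -0.26) and Hdac3 (0.20 and -0.20) were higher in the cortex by window and Hdac5 in the gastrocnemius (-0.20 and -0.063). The mitochondrial Sirt5 was higher in the cortex (0.34 and 0.085), and the mitochondrial Sirt4 (-0.28 and -2.41) and the nucleolar Sirt7 (-0.25 and 0.17) in the gastrocnemius by window. Dnmt3a (0.28 and 0.98) and Tet2 (0.35 and 0.088) were higher in the cortex and Tet3 (-0.27 and -0.78) in the gastrocnemius. With all peak reads the sign thus turned at Kat6b, Kmt2a, Cbx8, Hdac3, Hdac4 and Sirt7, and of these Kat6b and Kmt2a were called in the other direction (edgeR). In a window of 2.5 kb it turned at Sirt5 (-0.072). Without a scaling factor the sign turned at Hdac5, Kat2a, Kdm6b, Setd1b, Sirt4, Sirt7 and Tet3, all higher in the gastrocnemius with it.

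Some H3K27ac calls rested on single libraries. Those of Ezh1 (10 libraries), Hdac3 (8), Kdm6b (5) and Hdac4 (1, cortex replicate 5) were lost when 1 library was left out, where the difference at Hdac4 became 0.29. Without 1 library the differences ranged from -0.33 to -0.22 for Ezh1, 0.16 to 0.25 for Hdac3 and -0.19 to -0.14 for Kdm6b. With the mouse as a block the calls of Hdac3 (0.21), Hdac5 (-0.18) and Kdm6b (-0.19) were lost (edgeR, adjusted p = 0.107, 0.104 and 0.111). All peak reads kept the direction and the call of 7 of the 21 members, and the calls of Cbx6, Dnmt3a and Hdac11 held under all alternatives. The window of Cbx6 is shared with the start of Npcd. By window, the genes called for both marks in the same direction were Cbx6, Hdac3 and Tet2 in the cortex and Setd1b and Kdm6b in the gastrocnemius. Sirt7, Hdac4 and Hdac5 were called in opposite directions for H3K4me3 and H3K27ac by window. With all peak reads the sign of both marks turned at Sirt7 and Hdac4, Hdac5 had the same sign for both marks, and none of the 3 was called for H3K27ac.

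Peaks at most members were wider in the gastrocnemius, as they were at most genes. For H3K4me3, 42 of 53 members were wider in the gastrocnemius and 1 in the cortex (81.1% called), against 77.7% of 13532 genes (67% and 10.7%). For H3K27ac, 33 and 2 of 53 were called (66.04%), against 64.8% of 13045 genes (55% and 9.73%), by limma on log2 widths. The median difference in log2 width was -0.44 over members and -0.41 over all genes for H3K4me3, and -0.69 and -0.53 for H3K27ac. After each library's widths were centred on their own median, the members called were 5 wider in the cortex and 17 in the gastrocnemius for H3K4me3 and 14 and 13 for H3K27ac. Of all genes, 51.9% and 54.5% were then called, 47.2% and 57.7% of these wider in the cortex.

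**Figure D5:**
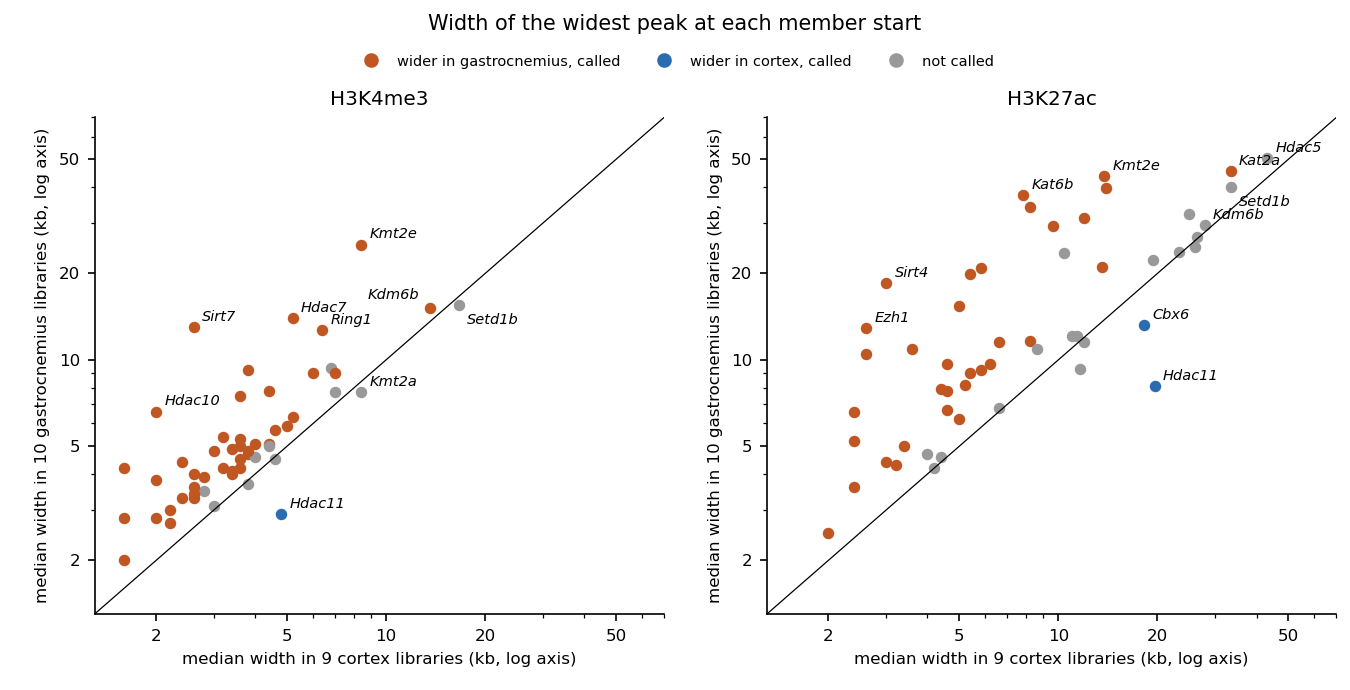
Median width in kb of the widest peak at each of 53 members in the cortex (horizontal) and the gastrocnemius (vertical), on log axes, 1 point per member, for H3K4me3 and H3K27ac; the line marks equal widths. Most points lie above the line, and the points called wider in the cortex are Hdac11 for both marks and Cbx6 for H3K27ac.

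The member with the largest H3K4me3 width difference was Sirt7 (chr11:120625014, minus strand). Its peak was 1600, 2600 and 3600 bp at the narrowest, median and widest cortex library and 2400, 13000 and 20400 bp in the gastrocnemius, a difference of -1.83 (limma, adjusted p = 4.9e-05). In most gastrocnemius libraries that peak also covered the starts of other genes, among them Mafg and Pcyt2. At Hdac10 (chr15:89128700, minus strand) the widths were 1600, 2000 and 2600 bp against 2000, 6600 and 13200 bp (-1.56, limma, adjusted p = 0.000128), and some gastrocnemius peaks reached the start of Tubgcp6.

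Kmt2e had no overlap in H3K4me3 width. It was 7600 to 11200 bp wide in the cortex (median 8400) and 15800 to 34000 bp in the gastrocnemius (median 25200), a difference of -1.41 (limma, adjusted p = 4.81e-07). The gastrocnemius libraries fell into 5 with peaks of 15800 to 18200 bp and 5 with peaks of 32200 to 34000 bp. Hdac11 was the only member called wider in the cortex for H3K4me3 without centring, at 4400, 4800 and 5600 bp against 1400, 2900 and 7000 bp (0.88, limma, adjusted p = 0.00147).

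For H3K27ac the largest width difference was at Kat6b, with 5800, 7800 and 10200 bp in the cortex and 21800, 37600 and 75200 bp in the gastrocnemius and no overlap (-2.37, limma, adjusted p = 1.4e-08). Sirt4 (chr5:115484484, minus strand) had 1400, 3000 and 7200 bp against 2800, 18500 and 107600 bp (-2.12, limma, adjusted p = 0.00184). Ezh1 (chr11:101226463, minus strand), whose product is the PRC2 methyltransferase of resting cells, had 1800, 2600 and 12800 bp against 7600, 12900 and 26600 bp (-2.10, limma, adjusted p = 1.84e-05). In these 3 genes the gastrocnemius medians were several times those of the cortex, with overlap at Sirt4 and Ezh1.

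The opposite was seen at Hdac11 and Cbx6. The H3K27ac peak at Hdac11 was 11200, 19600 and 27000 bp wide in the cortex and 4600, 8100 and 21800 bp in the gastrocnemius (0.90, limma, adjusted p = 0.00865). At Cbx6 (chr15:79834333, minus strand) it was 12800, 18200 and 20400 bp against 4200, 13200 and 26200 bp (0.66, limma, adjusted p = 0.0433), with overlap at both genes. The broadest H3K27ac peaks of the members in the cortex were at Hdac5, Kat2a and Setd1b. Their medians in cortex and gastrocnemius were 43000 and 50400 bp at Hdac5 and 33400 and 40000 bp at Setd1b, neither called, and 33400 and 45500 bp at Kat2a, which was called (-0.38, limma, adjusted p = 0.0509). With centred widths the call at Kat2a was lost and its sign turned (0.24, limma, adjusted p = 0.262), and Hdac5 (0.32, adjusted p = 0.0767) and Setd1b (0.38, adjusted p = 0.0122) were called wider in the cortex. In the gastrocnemius Kmt2e also reached a median of 43700 bp, above that of Setd1b, against 13800 bp in the cortex (-1.88, limma, adjusted p = 4.9e-08).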

How the data were processed

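ChIP-seq of H3K4me3, H3K27ac and H3K27me3 was done on cortex and gastrocnemius of PSAPP mice, with 57 libraries in all. Per the study's methods, the authors aligned reads of 51 bases to mm10 with BWA, used SAMtools, removed reads of mapping quality under 1, duplicates and reads outside chromosomes 1 to 19 and X, and called peaks in each library with epic2 in 200 bp windows. The deposited peak lists hold no count for an input control. The deposited value used was the count of reads in each peak (ChIPCount, a raw count per peak), and the deposited epic2 score served only in alternatives that rank peaks. Peaks come in steps of 200 bp, and a library without a peak gives no reads there, which is not a measured absence. Replicates are separate mice, and 9 mice gave both tissues, as the animal codes in the deposited names show. The deviations of the paired libraries from their group means correlated at -0.0989 to 0.0814 over 27 pairs. The names of 2 cortex and 4 gastrocnemius libraries per mark carry a number that is called a run number here. What it stands for is not stated, so these libraries are not known to be a batch.

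Each peak's count was shared over its length, and the share within 1 kb of the RefSeq Select start (GRCm38.p6) of 24921 autosomal genes was rounded. Genes with a peak in all 19 libraries of a mark were tested with edgeR 4.0.16 (quasi-likelihood, TMM, library size from autosomal peaks, tissue as the only term), peak presence with a two-sided Fisher's exact test, and log2 width with limma 3.58.1, in R 4.3.3. P-values were adjusted by Benjamini-Hochberg over all genes tested, and genes were called at an FDR under 0.1, the threshold of the study. DESeq2 1.42.0 size factors, other windows, all reads of a peak, score filters, any annotated start, the animal as a block, and leaving out each library were tried as alternatives. Scripts were tested on simulated data.

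The members and lists were chosen with earlier results of these data known. Values per tissue were given for members with H3K27me3 in at least 3 libraries of either tissue, for the 4 per direction with the largest read differences among those without overlap, for the 3 per direction with the largest width differences, and for those called by presence. Other members were given by their difference or counts, and the members kept under all alternatives were named after their values were seen. One gene of the lists is not reported here. The number of libraries and the reads per peak set the precision.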

Additional observations from a re-analysis of the deposited data

Results flagged for a closer look

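Among 34 groups of 9 or 10 libraries whose values are given above, 3 held a library set apart from the others by Dixon's criterion at the 95% level, where chance gives about 1 in 20 groups, or 1.7 here. At Hdac11, the widest H3K4me3 peak of the cortex libraries was 5600 bp in replicate 8, next to 5000 bp, and that of the gastrocnemius libraries was 7000 bp in replicate 6, next to 3600 bp. At Sirt4, the H3K27ac peak of gastrocnemius replicate 6 was 107600 bp wide, next to 21800 bp, and covered the starts of Gcn1, Mir7029, Pxn and Rplp0 as well.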

How the results depend on the processing

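Over the alternatives other than leaving out a library, 407 of 480 values for single members kept their direction and call, 45 lost the call and 28 changed direction. Of 120 counts under these alternatives, 109 stayed within 1.5 times their value. Without a scaling factor the difference turned for H3K4me3 at Hdac4 (0.082), Kdm1a (0.090), Kmt2c (0.14) and Tet1 (0.021), and for H3K27ac at Hdac5 (0.076), Kat2a (0.076), Kdm6b (0.11), Setd1b (0.030), Sirt4 (0.011), Sirt7 (0.039) and Tet3 (0.025), with the shift of all genes given above. With all reads of the peaks it turned for H3K4me3 at Cbx2 (-0.024), Hdac10 (-0.81), Hdac4 (0.093), Hdac5 (-0.37), Kmt2e (-0.47), Setd1a (-0.73) and Sirt7 (-1.17), for H3K27ac at Cbx8 (-0.067), Hdac3 (-0.20), Hdac4 (-0.26), Kat6b (-1.36), Kmt2a (-0.50) and Sirt7 (0.17), and for H3K27me3 at Tet1 (0.22). In a window of 2.5 kb it turned for H3K4me3 at Hdac10 (-0.096) and Sirt7 (-0.036) and for H3K27ac at Sirt5 (-0.072). The cause was not tested.

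Members called for H3K4me3 reads numbered 21 (52.9% of all genes called), and 39 without a factor (73.4% of all genes) and 37 with all peak reads (78.3%). For H3K27ac they numbered 21 (49%), and 34 with all peak reads (72.4%). For H3K27me3 they numbered 1, then 0 without a factor (21.1% of all genes) or with all peak reads (55.3%), and 2 with uncalled libraries at 0 (39.1%) or in 2.5 kb (57.9%). With at least 20 reads in every library no member could be tested for H3K27me3. All genes called there numbered 979, and 426 without a factor and 2424 with uncalled libraries at 0. Members called by H3K4me3 width fell from 43 to 22 with centred widths (77.7% and 51.9% of all genes). Members called by H3K27me3 presence rose from 0 to 1 with peaks covering at least 50% of the window. Centred widths moved the share of called genes wider in the cortex from 13.8% to 47.2% for H3K4me3, from 15.02% to 57.7% for H3K27ac and from 29.0% to 57.2% for H3K27me3, and no factor moved the share of H3K27me3 reads higher in the cortex from 54.9% to 71.6%.

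Leaving out each library gave 16 to 22 members called for H3K4me3 reads (50.6% to 52.97% of all genes), 18 to 22 for H3K27ac (46.8% to 49.3%) and 1 to 2 for H3K27me3 (2 without cortex replicate 6; 46.03% to 48.2% of all genes), and no direction changed. With the animal as a replicate block, 19 members were called for H3K4me3 reads, 18 of them among the 21, and 18 for H3K27ac (52.2% and 46.4% of all genes), with 42 and 35 by width and 1 by H3K27me3 reads, and the block lost no member's call by reads other than the 6 given above. Without the libraries that carry a run number, 20 and 19 members were called for H3K4me3 and H3K27ac reads (50.97% and 43.97% of all genes), and the share of genes called by H3K27me3 width that were wider in the cortex was 65.96%. The share of H3K27me3 peak reads assigned to the Cbx2 window was under 20 in each cortex library.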

Other observations

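Of 19 further genes of Polycomb proteins, 13 had no H3K27me3 peak at the start in any library. Epop, a PRC2 accessory protein, had one in all 19 libraries. At Epop the H3K27me3 values were 3.42 to 10.7 normalized RPM in the cortex (median 5.92) and 10.6 to 13.7 in the gastrocnemius (median 11.4), a difference of -1.02 ± 0.13 (edgeR, adjusted p = 1.74e-06), with the lowest gastrocnemius library just under the highest cortex library. H3K4me3 at Epop was called the other way by window, 0.67 ± 0.12 (adjusted p = 1.4e-05), as was H3K27ac, 0.59 ± 0.093 (adjusted p = 1.46e-05). For the genes of this list and the next, read differences are given by window only, without all peak reads or the other alternatives. Phc2 and Rybp, both of PRC1, had H3K27me3 in 0 of 9 cortex libraries and in 8 and 6 of 10 gastrocnemius libraries, and Fisher's exact test called both (adjusted p = 0.00444 and 0.0403), as it did 33.8% of all genes, 18.8% with more gastrocnemius libraries and 15% with more cortex libraries. Of the 19 genes, all tested for both active marks, 2 were called higher in the cortex and 3 in the gastrocnemius for H3K4me3, against 28.1% and 24.8% of all genes, and 6 and 3 for H3K27ac, against 25.5% and 23.5%.

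Of 26 other histone methylation enzymes, 24 had no H3K27me3 peak. Smyd1, a methyltransferase of striated muscle, had H3K27me3 in 9 of 9 cortex and 1 of 10 gastrocnemius libraries (Fisher's exact test, adjusted p = 0.00103), and H3K4me3 and H3K27ac in 0 of 9 and 10 of 10. Prdm16 had H3K27me3 in all 19, at 10.4 to 13.5 normalized RPM in the cortex and 4.96 to 11.3 in the gastrocnemius (0.50 ± 0.12, edgeR, adjusted p = 0.00185). Nsd1, which methylates H3K36, had the largest H3K4me3 difference among the 22 genes of this list with a peak in all 19 libraries, from a median of 15.5 in the cortex to 33.6 in the gastrocnemius without overlap (-1.11 ± 0.12, edgeR, adjusted p = 7.85e-09). Of the 22 tested for each active mark, 4 were called higher in the cortex and 7 in the gastrocnemius for H3K4me3, and 2 and 5 for H3K27ac, against the same shares of all genes.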
